A study of Bos taurus with 35 samples.

Results

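Long non-coding RNA (lncRNA) genes of beef *longissimus thoracis* (*LT*) were examined over time *post-mortem*. The genes were the Ensembl IDs to which the study's table of differentially expressed (DE) genes gives the biotype lncRNA, at any of its time points and in either direction, with each ID taken once. There were 103 such genes among the 27607 genes of the count table, and all 103 were among the 14630 genes with enough reads to be tested. Because a gene entered through a change against 0 h, its changes against 0 h are given here as a description and not as evidence. Of the 103 genes, 48 were listed as upregulated and 42 as downregulated at 72 h in the copy of the table used here. That copy is cut short for genes downregulated at 72 h, so lncRNA genes that fell only at 72 h and with weaker statistics are not analysed here.

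The muscle came from the left carcass sides of 7 British by Continental crossbred beef heifers that were finished on grain, slaughtered and kept in an abattoir drip cooler. A core of *LT*, the long muscle of the back, was taken from each carcass at 0 (45 min after slaughter), 6, 24, 48 and 72 h, which gave 35 samples with 7 animals at each of the 5 time points. No animal carried a treatment, and the 0 h cores of the same carcasses served as the reference. The cores of one animal are repeated samples of one carcass at different spots, and a core holds muscle fibres together with fat, vessel, connective tissue and immune cells, so that fewer cells of a type and less RNA per cell cannot be told apart. Libraries were made from mRNA with a stranded kit, and the samples held between 20568418 and 104275821 counted reads (median 40133660).

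A lncRNA is a long transcript with no recognised protein product. Some lncRNAs stay in the nucleus, where they act on chromatin or on the splicing and retention of other RNAs, and others act in the cytoplasm on the stability or translation of mRNAs; most have no known role. They are usually less abundant and more tissue specific than mRNAs, and only those with a poly(A) tail are captured well by an mRNA library. Of the 103 genes, only ENHO (ENSBTAG00000008539) had a symbol. ENHO is best known as the gene of adropin, a secreted peptide tied to energy metabolism, and a reference gene table of a later bovine assembly lists a gene of this symbol as protein coding. The other 102 carry an Ensembl ID alone and their functions are not known, so they are named by ID. Where a lncRNA gene lies antisense to another gene, reads of the pair can be told apart only if the counting used the strand, which the study's methods describe but their printed options leave in doubt.

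Levels are given as CPM (reads of a gene scaled to a common library size) after trimmed mean of M-values (TMM) normalization, as the lowest, median and highest of the 7 animals. CPM are not divided by gene length, so levels are compared between samples and not between genes. Changes are log2 fold changes from edgeR's quasi-likelihood model with animal as a block, with their standard error (SE), and false discovery rates (FDR) are Benjamini-Hochberg values over the 14630 genes. Against 0 h, calls needed both an FDR under 0.05 and a change of over 1.5-fold.

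The lncRNA genes were sparsely covered. Their median count per sample was 45.1, compared with 434.2 for all genes tested and 376.7 for the 3415 protein coding genes of the same table, and was 18.2 for its 43 small nucleolar RNA genes. Of the 103 genes, 53 (51.5%) had a mean level under 1 CPM, compared with 16.8% of all genes tested. The median biological coefficient of variation, the spread beyond counting error that is left after time point and animal are fitted, was 0.17 for the lncRNA genes, 0.142 for those protein coding genes and 0.102 for all genes. A total of 5 of the genes had at least 1 library without a read, and none had more than 2.

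Together the 103 genes took a small and slightly larger share of the reads after slaughter. Their summed reads made up between 0.0536 and 0.0677% of all reads at 0 h (median 0.0658%), and between 0.0706 and 0.0914% at 72 h (median 0.0795%). The 3 genes with the highest mean CPM, ENSBTAG00000048781, ENSBTAG00000054182 and ENSBTAG00000052369, carried much of this total. Without them the median share was 0.0318% at 0 h, and in the later samples it was 0.0331% (6 h), 0.0325% (24 h), 0.0278% (48 h) and 0.0276% (72 h).

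Few lncRNA genes were called early and most were called late. At 6 h, 4 were upregulated and 0 downregulated (2 had a lower level at an unadjusted p below 0.05, and likelihood ratio, DESeq2 and limma voom tests also called 0), with 0.349% of all genes called up and 0.185% down (0.533% in all). At 24 h, 5 were up and 1 was down (0.725% of all genes were up and 0.95% down, 1.67% in all). At 48 h, 19 were up and 36 down (2.96 and 6.3% of all genes, 9.26% in all), and at 72 h, 48 were up and 47 down (9.8 and 15.4% of all genes, 25.2% in all). The downregulated genes at 72 h exceed the 42 listed because 5 members listed at another time point also passed at 72 h. These shares among members follow from how the genes were chosen and carry no information beyond it.

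The genes fell into a few time courses. The 2 largest groups were 32 genes upregulated at 72 h only and 31 genes downregulated at both 48 and 72 h. A further 15 were downregulated at 72 h only, and 11 were upregulated at both 48 and 72 h. The cut copy can leave out genes that fell at 72 h only, so the 15 and the 32 are not comparable. Only 3 genes, ENSBTAG00000052369, ENSBTAG00000050319 and ENSBTAG00000049855, were called at all 4 time points, each time upregulated. No gene was called up at one time point and down at another. The 4 genes downregulated at 48 h only had log2 fold changes of -0.998 to -0.83 at 48 h and of -0.66 to -0.35 at 72 h, and the 3 genes upregulated at 48 h only went from 0.60 to 0.94 at 48 h to 0.22 to 0.61 at 72 h.

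**Figure D1:**
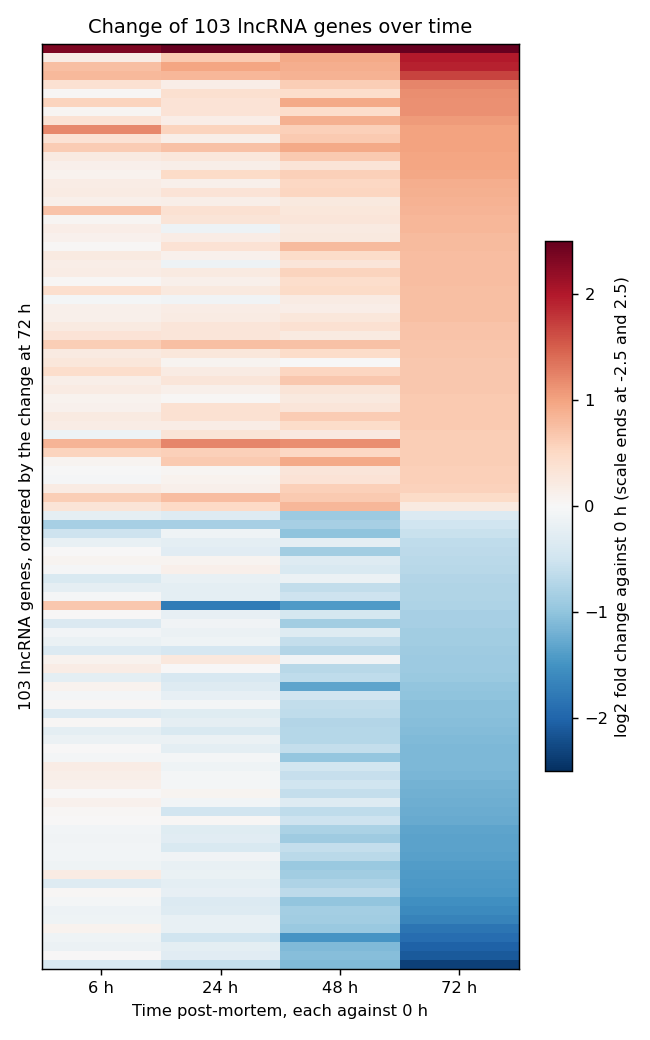
Log2 fold change against 0 h (colour) of the 103 lncRNA genes (lines, ordered by the change at 72 h) at 6, 24, 48 and 72 h *post-mortem* (columns), over 7 animals. Colour is faint for most genes at 6 and 24 h and deepens at 48 and 72 h in both directions, and the line at the top, ENSBTAG00000052369, is strongly coloured in all 4 columns.

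At 72 h the median downward change was larger than the median upward one, a difference that was not tested. The groups are not trimmed alike, because only the list of genes downregulated at 72 h is cut short, at its weaker end. The 48 upregulated genes had a median log2 fold change of 0.78 (0.59 to 2.51), with 10 of them over 2-fold, and 31 were higher in all 7 animals. The 47 downregulated genes had a median of -1.12 (-2.34 to -0.64), with 31 over 2-fold, and 39 were lower in all 7 animals. Among all genes called at 72 h the same difference in size was present, with a median of 0.76 and 17.4% over 2-fold for the 1434 upregulated genes and a median of -0.93 and 42.9% over 2-fold for the 2256 downregulated genes. The levels at 72 h did not overlap those at 0 h for 8 upregulated and 18 downregulated lncRNA genes, and 18% of all genes tested did not overlap.

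At 6 and 24 h, the upward changes had gone a larger part of the way to their 72 h size than the downward ones, a difference that was not tested. The cut of the downregulated list applies here too. At 6 h, the median upregulated gene had reached 23.5% of its log2 change at 72 h, and the median downregulated gene 4.88%. These shares were 30.6 and 16% at 24 h and 54.8 and 54% at 48 h. Mean levels climbed at every successive time point in 16 of the 48 upregulated genes, and dropped at every successive time point in 22 of the 47 downregulated genes.

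ENSBTAG00000052369 had the largest upward change of the 103 genes. Its level was 7.76 to 25.8 CPM at 0 h (median 14.8) and 36.8 to 145 CPM at 6 h (median 74.3). It was 78.5 to 137 CPM at 24 h (median 107), 56.6 to 174 CPM at 48 h (median 92.3) and 25.7 to 130.1 CPM at 72 h (median 109.9). At 6, 24 and 48 h every animal was above the highest 0 h sample. At 72 h, only animal 103, at 25.7 CPM, lay just under the highest 0 h level, which was that of animal 107. The log2 fold changes against 0 h were 2.34, 2.87, 2.72 and 2.51 in order of time (SE 0.23 to 0.24), and the level was higher than at 0 h in 7 of 7 animals each time. None of the 3 steps among 6, 24 and 48 h passed the test. The log2 difference was 0.38 at 48 h against 6 h, where 7 of 7 animals were higher (SE 0.22, FDR 0.18, edgeR quasi-likelihood), 0.53 at 24 h against 6 h (SE 0.22, FDR 0.68) and -0.14 at 48 h against 24 h (SE 0.22, FDR 0.69).

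The other genes called at all 4 time points moved less. ENSBTAG00000050319 had 3.11 to 4.92 CPM at 0 h (median 3.84), 4.51 to 8.38 CPM at 6 h (median 5.75) and 5.41 to 11.5 CPM at 48 h (median 7.58). All animals at 48 h were above all animals at 0 h, while at 6, 24 and 72 h the ranges overlapped. Its log2 fold changes were 0.63, 0.73, 0.96 and 0.998. ENSBTAG00000049855 was at a lower level, with 0.32 to 0.95 CPM at 0 h (median 0.71) and 0.98 to 1.46 CPM at 24 h (median 1.06), the only time point at which it did not overlap with 0 h. Its log2 fold changes were 0.62, 0.75, 0.74 and 0.70, so that nearly all of its change was present by 6 h. The remaining gene called at 6 h, ENSBTAG00000051814, is named here after its values were seen. It was sparsely covered, with 1 to 23 reads per sample, and had log2 fold changes of 1.21 at 6 h and 1.01 at 72 h and was not called at 24 or 48 h. Its levels overlapped with 0 h throughout.

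The next genes were called from 48 or 72 h on. ENSBTAG00000055189 had 0.2 to 5.24 CPM at 0 h (median 1.29), 0.53 to 7.72 CPM at 48 h (median 2.23) and 0.4 to 14.2 CPM at 72 h (median 5.61). The ranges overlapped at all times, but the level at 72 h was higher than at 0 h in each of the 7 animals. The log2 fold changes were 0.18, 0.66, 0.95 and 1.99 in order of time, the last with an SE of 0.21. ENSBTAG00000048515 likewise rose in every animal at 72 h, from 3.29 to 26.4 CPM (median 11.5) to 6.83 to 56.8 CPM (median 35.8), a log2 fold change of 1.22 (SE 0.10). It was already higher at 6 h in 7 of 7 animals, with a log2 fold change of 0.38 (SE 0.10) that was under the 1.5-fold threshold. ENSBTAG00000050626 went from 16.6 to 63.6 CPM (median 22.9) to 25.4 to 153 CPM (median 65.3) at 72 h, a log2 fold change of 1.17 (SE 0.20).

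ENHO was upregulated at 48 and 72 h. Its level was 2.23 to 3.47 CPM at 0 h (median 2.46), 2.79 to 4.37 CPM at 6 h (median 3.23) and 2.46 to 3.51 CPM at 24 h (median 2.95). It was then 3.43 to 6.02 CPM at 48 h (median 4.08) and 3.6 to 8.88 CPM at 72 h (median 4.51), so that every 72 h sample was above every 0 h sample. The log2 fold changes were 0.35, 0.14, 0.66 and 0.999 in order of time. Between time points outside the contrast of 72 with 0 h, ENHO was higher at 48 h than at 24 h in 7 of 7 animals (log2 difference 0.52, SE 0.14, FDR 0.0098, edgeR quasi-likelihood). It did not pass the same test at 48 h against 6 h (0.31, SE 0.14, FDR 0.077, higher in 6 of 7). ENHO was also called at 48 h against 0 h, so its 48 h samples are not wholly outside its selection.

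The 2 genes with the highest mean CPM rose modestly. ENSBTAG00000048781, which had 2390 to 35860 reads per sample and thus the most precise values, was at 109.9 to 215 CPM at 0 h (median 177), 137 to 311 CPM at 48 h (median 226) and 184 to 359 CPM at 72 h (median 295). The ranges overlapped, but within animals the level was higher at 72 h in 7 of 7, with a log2 fold change of 0.78 (SE 0.05). ENSBTAG00000054182 was at 95.3 to 149 CPM at 0 h (median 107) and 118 to 314 CPM at 72 h (median 198), with a log2 fold change of 0.75 (SE 0.16). At 48 h it had reached only 0.17 (SE 0.16), and 1 animal, 101, then had 45.5 CPM while the others had 133 to 189 CPM.

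**Figure D2:**
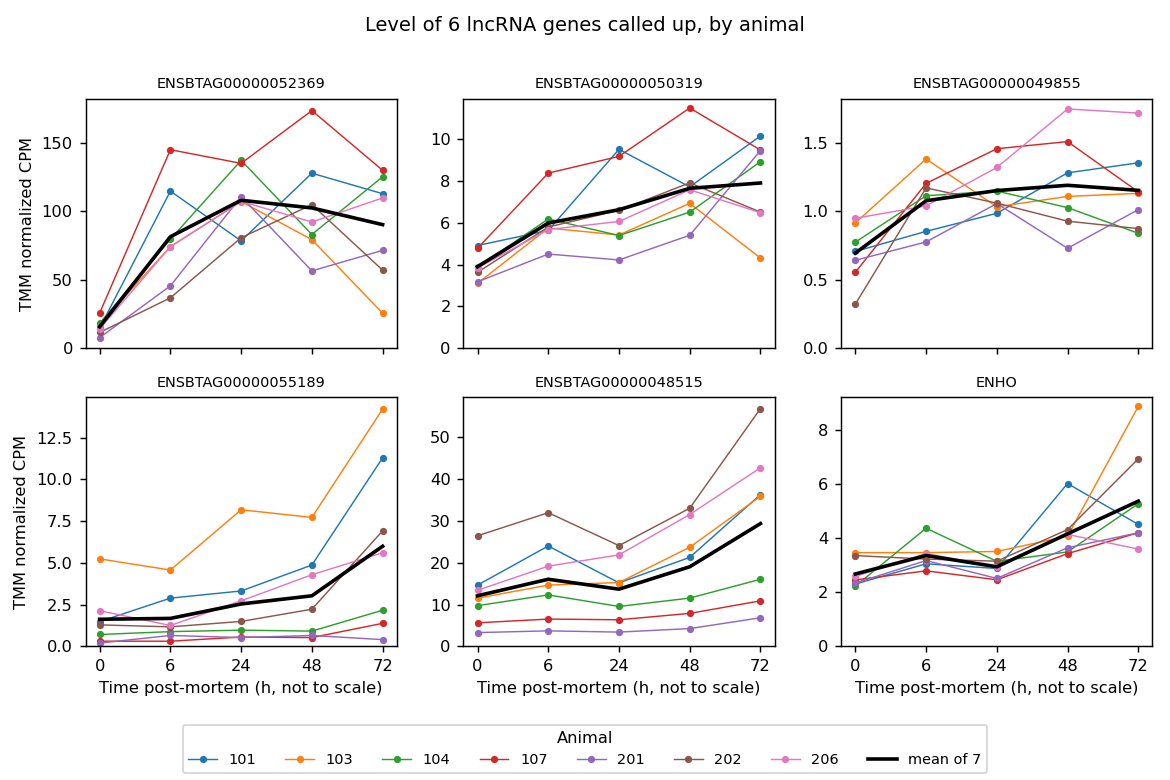
TMM normalized CPM (vertical axis, from 0) of 6 upregulated lncRNA genes at 0, 6, 24, 48 and 72 h *post-mortem* (horizontal axis, not to scale), with a thin line for each of the 7 animals and a thick black line for their mean. ENSBTAG00000052369 leaves its 0 h level by 6 h in all animals, while ENSBTAG00000055189, ENSBTAG00000048515 and ENHO are highest on average at 72 h and the first 2 of these keep wide gaps between animals.

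The next 5 genes had the largest falls at 72 h among those averaging 1 CPM or more and lower in every animal. They followed a similar course. None of the 5 was called at 6 or 24 h, and all were called at 48 and 72 h. Their medians were already below the 0 h level at 24 h, most of all in ENSBTAG00000052673 (5.8 CPM at 0 h and 4.35 CPM at 24 h). They were lower at 48 h and lower again at 72 h. ENSBTAG00000049549 had 3.88 to 5.51 CPM at 0 h (median 4.49), 1.85 to 5.29 CPM at 24 h (median 4.09), 0.75 to 3.76 CPM at 48 h (median 2.04) and 0 to 2.98 CPM at 72 h (median 0.96). Its 48 and 72 h samples were all below its 0 h samples. The log2 fold changes were -0.15, -0.25, -1.11 and -2.03 (SE 0.25 to 0.29).

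The other 4 did not overlap with 0 h at 72 h either. ENSBTAG00000052575 went from 3.52 to 5.73 CPM (median 4.04) at 0 h to 0.63 to 1.92 CPM (median 1.38) at 72 h, a log2 fold change of -1.83 (SE 0.22). ENSBTAG00000051359 went from 7.65 to 13.6 CPM (median 11.3) to 1.82 to 5.28 CPM (median 3.31), a log2 fold change of -1.67 (SE 0.14). ENSBTAG00000054349 went from 15 to 21.6 CPM (median 17.6) to 2.09 to 13.7 CPM (median 5.09), a log2 fold change of -1.58 (SE 0.20). In that gene the highest 72 h level was near the lowest 0 h level. ENSBTAG00000052673 went from 4.21 to 6.8 CPM (median 5.8) to 1.33 to 3.62 CPM (median 1.74), a log2 fold change of -1.54 (SE 0.15).

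Only 1 gene was downregulated at 24 h, ENSBTAG00000052462, and it too is named after its values were seen. It had 0.14 to 0.43 CPM at 0 h (median 0.29), 0.19 to 1.74 CPM at 6 h (median 0.32) and 0.028 to 0.15 CPM at 24 h (median 0.077). It was lower at 24 h than at 0 h in 7 of 7 animals, with a log2 fold change of -1.74 (SE 0.37). The later estimates were -1.42 at 48 h and -0.77 at 72 h. They rest on few reads per sample, 1 to 11 at 24 h, 1 to 9 at 48 h and 1 to 17 at 72 h, so no return toward 0 h is claimed. The genes of adipocytes (fat cells), of which 16 of 20 listed had a symbol, were also first called at 24 h. None was called at 6 h, and 15 were lower at 24 h, 16 at 48 h and 15 at 72 h. Of all genes tested, 0.95, 6.3 and 15.4% were called lower at these times. A gene had a symbol only if it was called at some time point, so these counts are raised by that rule. The 16 genes had a median log2 fold change of -3.07 at 24 h and -3.16 at 72 h. Their summed level was 451.3 to 2012 CPM at 0 h, 317 to 4433 CPM at 6 h and 269 to 326 CPM at 24 h. The 6 h sample of animal 206 had both the highest summed adipocyte level and the highest ENSBTAG00000052462 level. Below it the order differed. The next highest sum, 2012 CPM in animal 107 at 0 h, went with 0.29 CPM of this gene. Its next highest level, 0.47 CPM in animal 202 at 6 h, went with a sum of 858 CPM. The part of fat in the cores in this result was not tested.

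**Figure D3:**
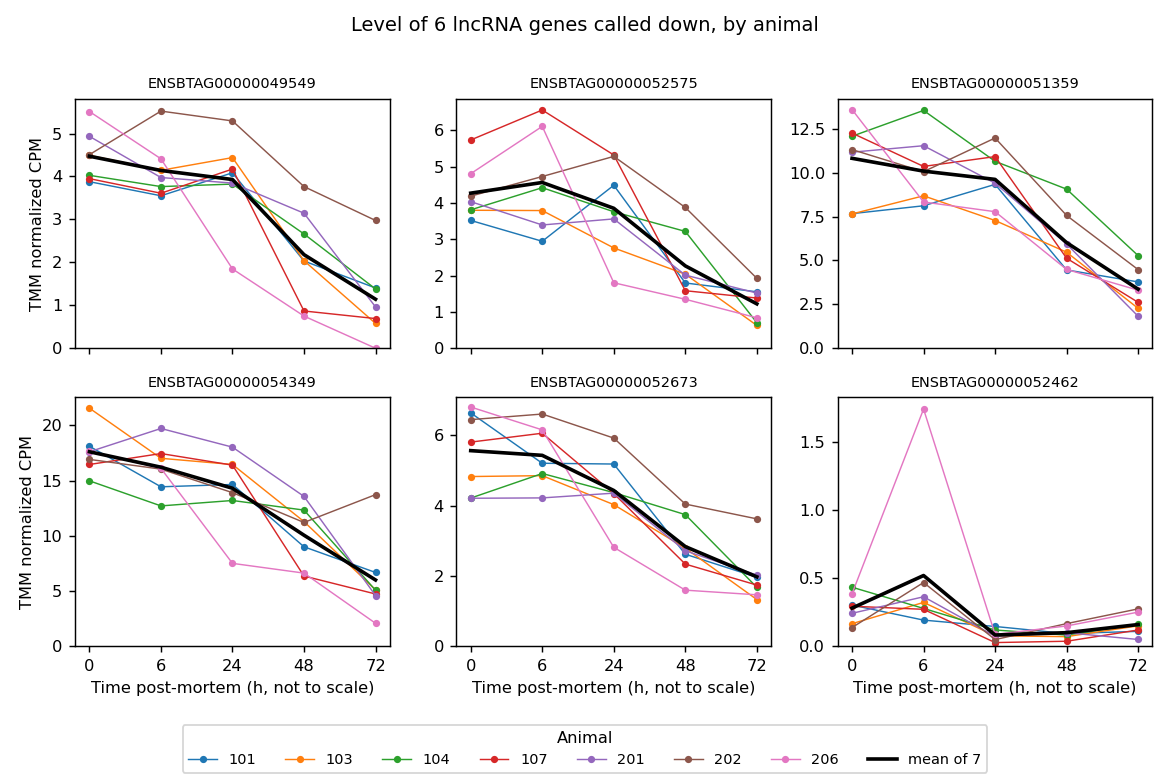
TMM normalized CPM (vertical axis, from 0) of 6 downregulated lncRNA genes at 0, 6, 24, 48 and 72 h *post-mortem* (horizontal axis, not to scale), with a thin line for each of the 7 animals and a thick black line for their mean. The first 5 genes are lower on average at 24 h than at 0 h and fall further at 48 and 72 h, with animal 206 already low at 24 h. ENSBTAG00000052462 is lowest at 24 and 48 h after 1 high 6 h sample of animal 206.

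Genes just inside the threshold show how small a called change could be. ENSBTAG00000049130, at a log2 fold change of 0.59 at 72 h, went from 2.88 to 6.00 CPM (median 3.25) to 4.23 to 9.17 CPM (median 4.55), and ENSBTAG00000053905, at 0.60, went from 1.05 to 2.15 CPM (median 1.17) to 1.3 to 2.99 CPM (median 1.89). Among the downregulated genes, ENSBTAG00000048741 was at -0.64 and ENSBTAG00000051528 at -0.68. The member nearest outside the threshold among those with an FDR below 0.05 at 72 h was ENSBTAG00000049257, at 0.57.

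The members listed at 72 h were chosen by the contrast of 72 with 0 h, so the changes among 6, 24 and 48 h compare samples outside that contrast. In a model of all 35 samples, however, the filter, the estimate of spread and the animal block rest on every time point. These steps are therefore not wholly independent of the listing. These contrasts were called at an FDR below 0.05 alone. Between 6 and 24 h, 0 of the 48 upregulated and 0 of the 42 downregulated members passed the quasi-likelihood test, with 0.0342% of all genes called higher and 0.588% lower (0.622% in all). At an unadjusted p below 0.05, 3 of the 48 were higher and 1 lower, and 0 of the 42 were higher and 3 lower; likelihood ratio, DESeq2 and limma voom tests also called 0.

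Between 6 and 48 h, the downregulated members had already moved. Of the 42, 27 (64.3%) were lower at 48 h and 0 were higher, compared with 17.4% of all genes called lower. The median log2 difference was -0.61 (-1.38 to 0.24), compared with 0.01 over all genes, 41 of 42 estimates were below 0, and 18 genes were lower in all 7 animals. The 5 named genes all passed, with log2 differences of -0.96 (SE 0.27, FDR 0.0086) for ENSBTAG00000049549, -1.003 (SE 0.21, FDR 0.0011) for ENSBTAG00000052575 and -0.76 (SE 0.14, FDR 0.00033) for ENSBTAG00000051359. ENSBTAG00000052673 differed by -0.93 (SE 0.15, FDR 0.00013), and its 48 h samples were all below its 6 h samples. ENSBTAG00000054349 differed by -0.71 (SE 0.20, FDR 0.0071). Of the 42, 27 were also listed at 48 h against 0 h, a listing that did use the 48 h samples. Of these, 22 passed, as did 5 of the other 15. The 5 named genes are all among the 27, so their 48 h samples are not wholly outside their selection.

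The upregulated members had moved less, but the downregulated list lacks its weaker entries, so the groups are not trimmed alike. Of the 48, 11 (22.9%) were higher at 48 h than at 6 h and 0 were lower, compared with 15.7% of all genes called higher. The median log2 difference was 0.25 (-0.62 to 0.77), and 43 of 48 estimates were above 0. The largest called difference was that of ENSBTAG00000055189 (0.77, SE 0.22, FDR 0.0088, higher in 6 of 7 animals), and the most abundant by CPM was ENSBTAG00000048781 (0.25, SE 0.05, FDR 0.0014, higher in 7 of 7). ENSBTAG00000054182 showed no called difference (0.05, SE 0.16, FDR 0.83). Of the 48, 15 were also listed at 48 h, and 4 of these and 7 of the other 33 passed. Leaving out animal 206 left 6 genes called higher, and scaling by library totals alone left 5.

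Protein coding genes of the same 72 h lists were called more often in these steps, at a higher read depth. Of 1928 listed as downregulated, 81.6% were lower at 48 h than at 6 h, with a median log2 difference of -0.44, and of 1311 listed as upregulated, 54.7% were higher, with a median of 0.29. The median difference of the lncRNA genes was thus larger for the downregulated and similar for the upregulated group, while the share called was lower in both; these differences were not tested. Of 35 small nucleolar RNA genes listed as upregulated, 6 (17.1%) were called higher, with a median of 0.32. The part of read depth in the lower share called was not tested.

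**Figure D4:**
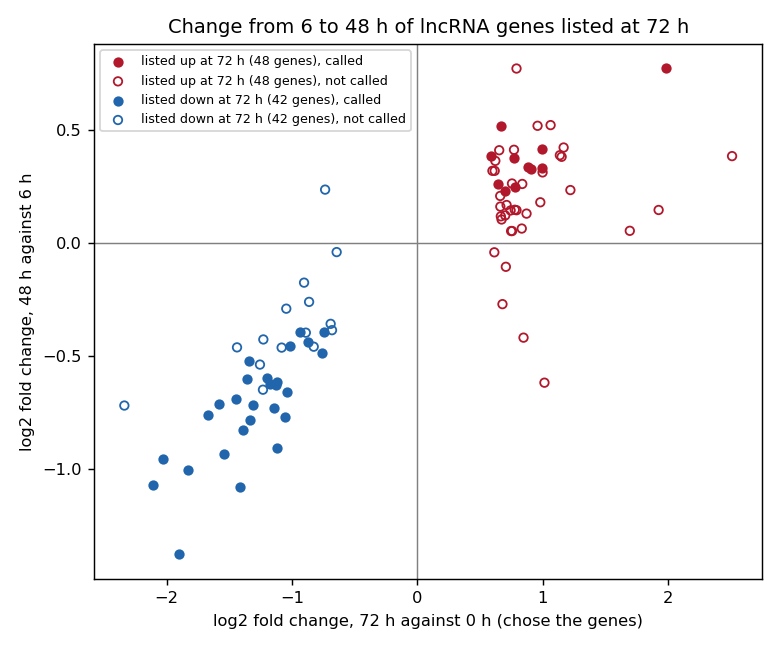
Log2 fold change at 48 h against 6 h (vertical axis) against that at 72 h against 0 h, which chose the genes (horizontal axis), for 48 lncRNA genes listed as upregulated (red) and 42 as downregulated (blue) at 72 h; filled points passed an FDR below 0.05 at 48 h against 6 h. Of the blue points, 27 are filled and 41 lie below 0, and of the red points, 11 are filled and 43 lie above 0.

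From 24 to 48 h, 19 of the 42 downregulated members (45.2%) were lower and 11 of the 48 upregulated (22.9%) were higher, with 9.84 and 9.56% of all genes called in those directions. The median log2 differences were -0.49 and 0.20. Both this step and that from 6 h were called for 17 of the downregulated and 7 of the upregulated members. Both steps share the 48 h samples. As 27 of the 42 and 15 of the 48 were also listed at 48 h against 0 h, those samples helped to choose them. Their counts in this step are therefore not wholly outside the selection, and setting them beside all genes does not remove that. The count of 19 was sensitive to the animals used, with 5 without animal 101, 11 without animal 103 and 4 without animal 107, and the count of 11 was 6 without animal 101 and 5 without animal 107. Without the animal block, 0 upregulated and 12 downregulated members passed at 48 h against 6 h, and 0 and 0 at 48 h against 24 h.

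The downregulated genes fell in every animal, but not at the same time. Over the 47 genes, the median log2 difference from 0 h at 24 h was between -0.18 and 0.08 in 6 animals and was -0.93 in animal 206. At 48 h the medians were -1.34 in animal 206, -1.21 in animal 107, -0.74 in animal 101, -0.73 in animal 103, -0.50 in animal 201, -0.30 in animal 202 and -0.08 in animal 104. By 72 h all 7 animals were low, from -0.59 in animal 202 to -2.00 in animal 206. The 24 h median of animal 206 was below the 48 h medians of 5 of the other 6 animals, and animal 104 was the only one near 0 at 48 h.

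Protein coding genes showed the same animal apart. Over the 1928 protein coding genes listed as downregulated at 72 h, the median log2 difference at 24 h was -0.68 in animal 206 and between -0.18 and -0.02 in the other 6. The 24 h library of animal 206 had 21716752 reads, the fewest at that time point, and the part of depth in its levels was not tested. The upregulated lncRNA genes differed less between animals, with medians at 72 h from 0.61 in animal 104 to 1.09 in animal 206. These per-animal values are single samples with no replicate of their own.

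**Figure D5:**
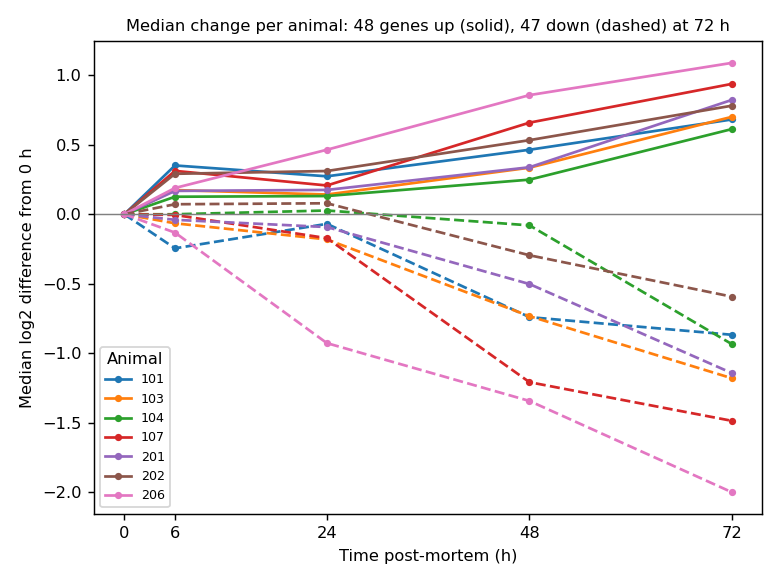
Median log2 difference from 0 h in each of the 7 animals (colours) over the 48 lncRNA genes upregulated at 72 h (solid lines) and the 47 downregulated at 72 h (dashed lines), against time *post-mortem* in h. The dashed line of animal 206 is at -0.93 at 24 h while the other 6 lie between -0.18 and 0.08, and all solid lines end between 0.61 and 1.09 at 72 h.

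Differences between animals, averaged over the time points, were not used to choose the genes. They were tested in the same model with 6 degrees of freedom, a test added after the spread between animals was seen. The test does not ask whether a difference held at each time point. Of the 103 genes, 67 (65%) differed between the 7 animals at an FDR below 0.05, compared with 82.5% of all genes. In size, however, the lncRNA genes differed more. The ratio of the highest to the lowest animal mean had a median of 1.7 over the lncRNA genes and 1.46 over all genes, and was over 2 for 39 genes (37.9%) compared with 19.6% of all genes. Ratios of sparsely covered genes include more counting error, and this was not tested apart.

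In a few lncRNA genes the animals differed many fold. ENSBTAG00000055189 averaged 7.99 CPM over the 5 samples of animal 103, 4.77 in animal 101, 3.2 in animal 206, 2.62 in animal 202, 1.13 in animal 104, 0.62 in animal 107 and 0.49 in animal 201, a ratio of 16.4 (FDR 9.4e-14, edgeR quasi-likelihood). Animal 103 was the highest at all 5 time points. ENSBTAG00000052038, which was downregulated at 48 and 72 h, averaged 0.86 CPM in animal 201 and 5.08 to 9.45 CPM in the other 6 (ratio 11, FDR 5.9e-10), and animal 201 was the lowest at all 5 time points. ENSBTAG00000048515 averaged 34.4 CPM in animal 202 and 4.3 CPM in animal 201 (ratio 8.01, FDR 4.5e-17), and these animals were highest and lowest at all 5 time points. ENSBTAG00000052038 is named here as one of the 3 genes with the largest ratio.

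Genes with symbols in the same table gave the setting of these changes. Symbols were known only for genes found DE at some time point, so each list counts only such members. Of the list of RNA decay and processing genes, 9 of 38 had a symbol. At 72 h, EXOSC4, a subunit of the RNA exosome, and UPF3B, a nonsense-mediated decay factor, were upregulated. The other 7 were downregulated, among them the 5′ exonuclease XRN1, the decapping enzyme DCP2, the deadenylase scaffold CNOT1, the exosome helicase MTREX and the small RNA proteins DICER1 and AGO2. At 48 h, 2 of the 9 were downregulated, and 0 were called at 6 or 24 h. Of all genes tested, 9.8% were called up and 15.4% down at 72 h (25.2% in all), and 6.3% down at 48 h. Because a symbol required a call, the counts out of 9 are raised, and no result about RNA decay is drawn from them. Of 14 nuclear retention and 31 well known lncRNA genes such as MALAT1 and NEAT1, 0 had a symbol in the table, so they give no count.

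Marker genes of cell types were also called at 48 and 72 h, where 9.26 and 25.2% of all genes tested were called. A marker had a symbol only if it was called at some time point, so these counts are raised by that rule. Of 9 macrophage genes with a symbol (12 listed), 7 were downregulated at 48 h and 9 at 72 h, with summed levels of 48.9 to 163 CPM at 0 h, 36.6 to 78.3 CPM at 48 h and 16.6 to 55.2 CPM at 72 h. Of 17 T and NK cell genes (22 listed), 15 were upregulated at 48 h and 17 at 72 h, with summed levels of 15.4 to 25.3 CPM at 0 h and 28.4 to 40.1 CPM at 72 h. The fibre genes of the tissue itself were abundant throughout, and of 8 with a symbol (16 listed), 7 were upregulated and 1 downregulated at 72 h (summed 51270 to 61600 CPM at 0 h and 78200 to 114600 CPM at 72 h).

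Few genes of the smaller lists had a symbol, and having one required a call at some time point. At 72 h, 2 of 10 listed fibroblast genes were downregulated, and 1 of 5 smooth muscle and 3 of 6 nerve genes were upregulated. Of all genes tested, 15.4% were called down and 9.8% up at 72 h, and 2.96% up at 48 h. Lists this short cannot be told from those shares. At 48 h, 2 of 6 erythroid genes were upregulated, with a summed level of up to 72.2 CPM in 1 sample. Of 10 endothelial genes, 0 had a symbol. The part of cell composition in the lncRNA changes was not tested.

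Genes that mark position along the body axis were called mostly at 72 h, where 25.2% of all genes tested were called. Of 54 listed, only those called at some time point had a symbol, so the counts below are raised by that rule. Of 11 with a symbol, 0 were called at 6 h, 1 was downregulated at 24 h, 1 was up and 2 were down at 48 h, and 9 were down and 2 up at 72 h. HOXD4 was the gene downregulated at 24 h, and it was also down at 48 and 72 h. SIM1, a transcription factor, had 22 to 81 reads per sample at 0 h (0.68 to 1.4 CPM). It had 5 to 63 reads at 48 h (0.25 to 0.74 CPM) and 0 reads in all 7 samples at 72 h. HOXC10, a homeobox gene of the posterior body, had 51.5 to 67.4 CPM at 0 h, 48.5 to 73.2 CPM at 48 h and 14.7 to 27.8 CPM at 72 h. The 2 upregulated at 72 h were HOXC9 and HOXA4. HOXC9 had 10.7 to 14.4 CPM at 0 h, 13.1 to 21.2 CPM at 48 h and 19.4 to 28.9 CPM at 72 h. HOXA4 had 1.58 to 2.7 CPM at 0 h and 2.3 to 5.48 CPM at 72 h. The summed level of the 11 genes was 121 to 157 CPM at 0 h, 113 to 145 CPM at 6 h, 134 to 166 CPM at 24 h, 135 to 165 CPM at 48 h and 63.4 to 111 CPM at 72 h. The highest 72 h sample, of animal 206, was close to the lowest 6 h sample, of the same animal. The part of the place of sampling in the 72 h values was not tested. With the 72 h samples left out of the model, an alternative added after these levels were seen, 18 lncRNA genes were upregulated and 32 downregulated at 48 h against 0 h, and 29 of the 42 downregulated and 13 of the 48 upregulated members passed at 48 h against 6 h.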

How the data were processed

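RNA-Seq read counts of 35 *LT* samples were analysed. The authors trimmed the reads, mapped them to the ARS-UCD1.2 assembly and counted them per gene with the annotation of Ensembl release 95, and deposited raw counts, which are whole numbers per gene and sample and not normalized. The submitters' processing notes name Trimmomatic 0.39, FastQC 0.11.8, STAR 2.7.0f and featureCounts 1.6.4. The methods describe counting by strand and the deposited table is named for the reverse strand, while the printed options include an unstranded setting. Animals were not pooled, and all 35 columns were used. The libraries held 20568418 to 104275821 counted reads, so a level of 1 CPM stands for few reads in the shallowest libraries.

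Biotypes and symbols came from the supplementary table of DE genes, whose fold changes and p-values were not used. The copy used here is cut short for genes downregulated at 72 h, at 1999 entries. The 103 lncRNA genes and all gene lists were chosen with earlier results of these data known.

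Counts were analysed with edgeR 4.0.16 in R 4.3.3: filterByExpr by time point (minimum count 10), TMM normalization (factors 0.846 to 1.11), a quasi-likelihood fit of all 35 samples with time point and animal, and Benjamini-Hochberg adjustment over 14630 genes. Log2 values per sample used a prior count of 2. The test between animals, and a fit without the 72 h samples, were added after the data were seen. The 5 samples of an animal number come from one carcass, so the number pairs the samples. Deviations from the time point means had a median correlation of 0.58 over 70 pairs of samples of the same animal (0.29 to 0.77) and of -0.12 where the animals differed (525 pairs).

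The genes named were ENHO; those called at all 4 time points; the 3 called genes (5 at 72 h) with the largest change in each direction and time, at a mean of 1 CPM or more and with one direction in all 7 animals; the 3 with the highest mean CPM; and the 2 nearest inside the threshold in each direction at 72 h. Others are named as chosen after their values were seen. The alternatives were a likelihood ratio test, DESeq2 1.42.0, limma 3.58.1 (voom), other scaling, filters, thresholds and sample sets, no block, thinned counts, and leaving out each animal. The model was run on simulated counts with known changes at 72 h only and no differences between animals. That run could not check the animal block or the finding of changes before 72 h. Sequences and genome positions were not analysed here.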

Additional observations from a re-analysis of the deposited data

Results flagged for a closer look

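The 18 named genes were searched at each time point for a sample that stood apart from the other 6 by a large part of the group's range (Dixon's test at the 95% level). The test was run on log2 CPM with a prior count of 2, while the levels below are CPM. For ENSBTAG00000049549 at 72 h, which ran from 0 to 2.975 CPM, the gap is a smaller part of the range in CPM. Of 90 groups of 7 samples, 6 had such a sample, where chance gives about 1 in 20. Animal 206 was low in 3 of them: ENSBTAG00000049549 had 1.846 CPM at 24 h (next 3.822 CPM) and 0 CPM at 72 h (next 0.5775 CPM), and ENSBTAG00000054349 had 7.517 CPM at 24 h (next 13.21 CPM). At 48 h, animal 101 was high for ENHO, with 6.023 CPM (next 4.32 CPM), and low for ENSBTAG00000054182, with 45.54 CPM (next 132.9 CPM). At 72 h, animal 202 was high for ENSBTAG00000052673, with 3.622 CPM (next 2.025 CPM). The causes were not tested.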

How the results depend on the processing

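Of the counts under alternatives, 290 were within 1.5 times the reported count and 56 were not. Without the replicate block (animal), 1 member was upregulated at 6 h, 3 at 24 h, 8 at 48 h (21 downregulated) and 41 at 72 h (44 downregulated). In the steps without the block, 0 rose and 12 fell from 6 to 48 h, and 0 rose and 0 fell after 24 h. With library totals in place of TMM, 11 were up at 48 h and 25 at 72 h, and in the steps to 48 h, 5 rose from 6 h and 4 from 24 h. This scaling moved the median of all genes by -0.09 (48 h) and -0.16 (72 h), and the upregulated share of called members from 34.5 to 21.2% and from 50.5 to 33.8%. ENSBTAG00000054182 then had a log2 difference of -0.042 from 6 to 48 h (0.052 as reported).

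A filter of 1 CPM in 7 samples tested 60 members: 3 up and 0 down at 24 h, 9 up and 19 down at 48 h, 30 up and 29 down at 72 h, and 43 that differed between animals. Counts thinned to the smallest library (83 tested) gave 2 up at 6 h, 3 up and 0 down at 24 h, 11 up and 23 down at 48 h, 11 that fell from 24 to 48 h and 44 that differed between animals. Testing against 1.5-fold gave 1 up at 6 h, 1 up and 0 down at 24 h, 1 up and 0 down at 48 h, 15 up and 31 down at 72 h. An FDR alone gave 7 up at 6 h and 31 up at 48 h. Asking over 1.5-fold in the steps to 48 h left 1 that rose from 6 h, 1 that rose from 24 h and 12 that fell from 24 h. Every gene with a read, or the samples of 2 time points, gave 2 up at 6 h. The count down at 24 h was 2 by the likelihood ratio, DESeq2 and voom tests and without the 72 h samples.

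Leaving out each animal gave 1 to 3 members up at 6 h, 4 to 5 up at 24 h, 12 to 17 up at 48 h and 42 to 47 up at 72 h; the downregulated numbered 0 at 6 h, 1 at 24 h, 23 to 38 at 48 h and 45 to 48 at 72 h. Among the 48 and 42 members listed at 72 h, 0 rose or fell from 6 to 24 h in any fit, and no step called one against its 72 h direction. From 6 to 48 h, 6 to 14 rose and 18 to 31 fell, from 24 h on 5 to 11 rose and 4 to 20 fell, and 56 to 69 differed between animals. The count up at 6 h was 1 without animal 103 or 107 and 2 without 101 or 202, the count up at 48 h was 12 without 206, and that down at 48 h was 23 without 107. From 6 to 48 h, ENSBTAG00000048741 (-0.041) ranged from -0.134 without animal 104 to 0.059 without 107, and was 0.014 without 103. ENSBTAG00000054182 ranged from -0.055 without 206 to 0.214 without 101. Of single values of named genes, 627 were on the same side of the test, 43 lost and 8 gained a call. DESeq2 gave no adjusted p for 9 members in the steps to 48 h. Except where a filter or thinning removed members, the cause was not tested. The size of change that the median of 45.1 reads per sample could show was not determined.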
